A study of Mus musculus with 18 samples.

Results

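The 9 genes described here are the fat cell transcription factors Pparg, Cebpa, Cebpb and Cebpd and the secreted factors Lep, Retn, Rarres2, Apln and Sfrp5. They were taken by name, all 9 were found among the 33641 genes of the expression table, and all 9 passed the filter on low values in both tissues. RNA was sequenced from white adipose tissue and quadriceps muscle of DBA/2J wild-type male mice. The labels give an age of about 20 weeks, which the treatment protocol ties to the injections that followed 12 weeks on a high-fat diet, and the diet went on for the 12 weeks of treatment. The groups were prednisone once weekly, prednisone once daily and daily vehicle, each with 3 mice and with both tissues from every mouse. Prednisone, a synthetic glucocorticoid, was injected intraperitoneally at 1 mg/kg for 12 weeks, and both tissues were collected 24 hours after the final dose. The study's design text counts 2 adipose samples of the daily group, whereas the labels and the table hold 3, all used here. The labels do not give the depot of the adipose tissue. No lean mice were among the samples.

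PPARG is the nuclear receptor that fat cells need to form and to keep their identity, and CEBPA is the factor that sustains its expression. CEBPB and CEBPD act earlier in fat cell formation, are made in many other cell types, and are classic early targets of glucocorticoids. Leptin (Lep) signals fat stores to the brain, resistin (Retn) is a fat cell product in mice that opposes insulin, chemerin (Rarres2) attracts immune cells and acts on fat cells themselves, apelin (Apln) acts on vessels and muscle, and SFRP5 binds the Wnt ligand WNT5A.

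The members lie on separate loci, given here on GRCm38 with the GENCODE M21 annotation. Pparg spans chr6:115360951-115490399 on the plus strand, Lep chr6:29060220-29073877 on the plus strand and Rarres2 chr6:48569696-48572789 on the minus strand. Cebpa is at chr7:35119293-35121928, Cebpb at chr2:167688915-167690418, Cebpd at chr16:15887286-15891031 and Retn at chr8:3655770-3660110, all on the plus strand. Apln is at chrX:48025146-48034853 and Sfrp5 at chr19:42197971-42202252, both on the minus strand. On the opposite strand, exons of Tmem189 share 312 bases with Cebpb, exons of Spidr 562 bases with Cebpd and exons of Lrrc61 892 bases with Rarres2. The library kit keeps strand, but no source used here says whether quantification did, so these 3 levels are uncertain to that extent.

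RefSeq promoter windows on GRCm38 were matched for 7 of the 9 members, all but Cebpd and Rarres2, and the 250 bases before each start were searched on both strands for a C/EBP motif (TTGCNNAA), a glucocorticoid receptor palindrome (ACANNNTGT), the PPAR direct repeat of 2 AGGTCA units 1 base apart and a TATA box (TATAAA). Of 9 windows searched, the 2 that held the C/EBP letters are shown, 5′ to 3′ on the plus strand, because they belong to a member transcription factor and to a member hormone. The first lies before the start of the Pparg transcript for the longer protein, chr6:115421816-115422065, and the second before Lep, chr6:29059971-29060220. Capitals mark the C/EBP matches.
Pparg: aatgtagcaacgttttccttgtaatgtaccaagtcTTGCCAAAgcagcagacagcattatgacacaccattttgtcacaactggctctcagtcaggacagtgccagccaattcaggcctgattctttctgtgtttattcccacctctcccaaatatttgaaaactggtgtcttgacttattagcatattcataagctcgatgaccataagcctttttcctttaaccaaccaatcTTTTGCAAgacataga
Lep: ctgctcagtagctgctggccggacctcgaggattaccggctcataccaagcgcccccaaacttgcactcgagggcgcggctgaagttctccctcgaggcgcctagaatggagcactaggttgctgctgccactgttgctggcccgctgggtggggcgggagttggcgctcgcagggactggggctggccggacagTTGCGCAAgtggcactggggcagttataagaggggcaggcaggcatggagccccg
The Pparg window has matches at -215 to -208 and, on the other strand, at -16 to -9 from the start. The Lep window has 1 match at -55 to -48, which reads the same on both strands. The C/EBP letters stand in 9.56% of 32851 windows of this length. No matched window of a member held the glucocorticoid receptor letters, present in 5.84% of windows, or the PPAR repeat, present in 0.0335%. The TATA letters, present in 12.4% of windows, stood before Cebpa at -30 to -25. They also stood in another Pparg window, on the other strand, at -29 to -24. A match is a string of letters, and binding was not measured.

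In adipose tissue the members ran from 6.37 TPM for Apln to 2624 TPM for Rarres2, both in vehicle library 1. TPM is transcript abundance scaled for transcript length and for the total of each library, so levels can be compared between genes. Over the 9 adipose libraries Rarres2 averaged 2263 ± 250 TPM and ranked 47th of all genes, Lep averaged 1368 ± 126 TPM and ranked 70th, and Retn averaged 619 ± 91.7 TPM (SD, n = 9). Cebpa, at 544 ± 56.1 TPM, stood above Sfrp5, at 294 ± 43.4 TPM, and Pparg, at 186 ± 13.6 TPM. Cebpb averaged 120 ± 19.3 TPM, Cebpd 13.0 ± 2.52 TPM and Apln 9.28 ± 2.00 TPM. Retn and Cebpa overlapped in range, as did Cebpd and Apln. The ranges of the other neighbours in this order did not overlap, although the lowest Sfrp5 value, 210 TPM, nearly met the highest Pparg value, 209 TPM. Pparg varied least, with a coefficient of variation of 7.35%, and Apln most, with 21.6%.

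**Figure D1:**
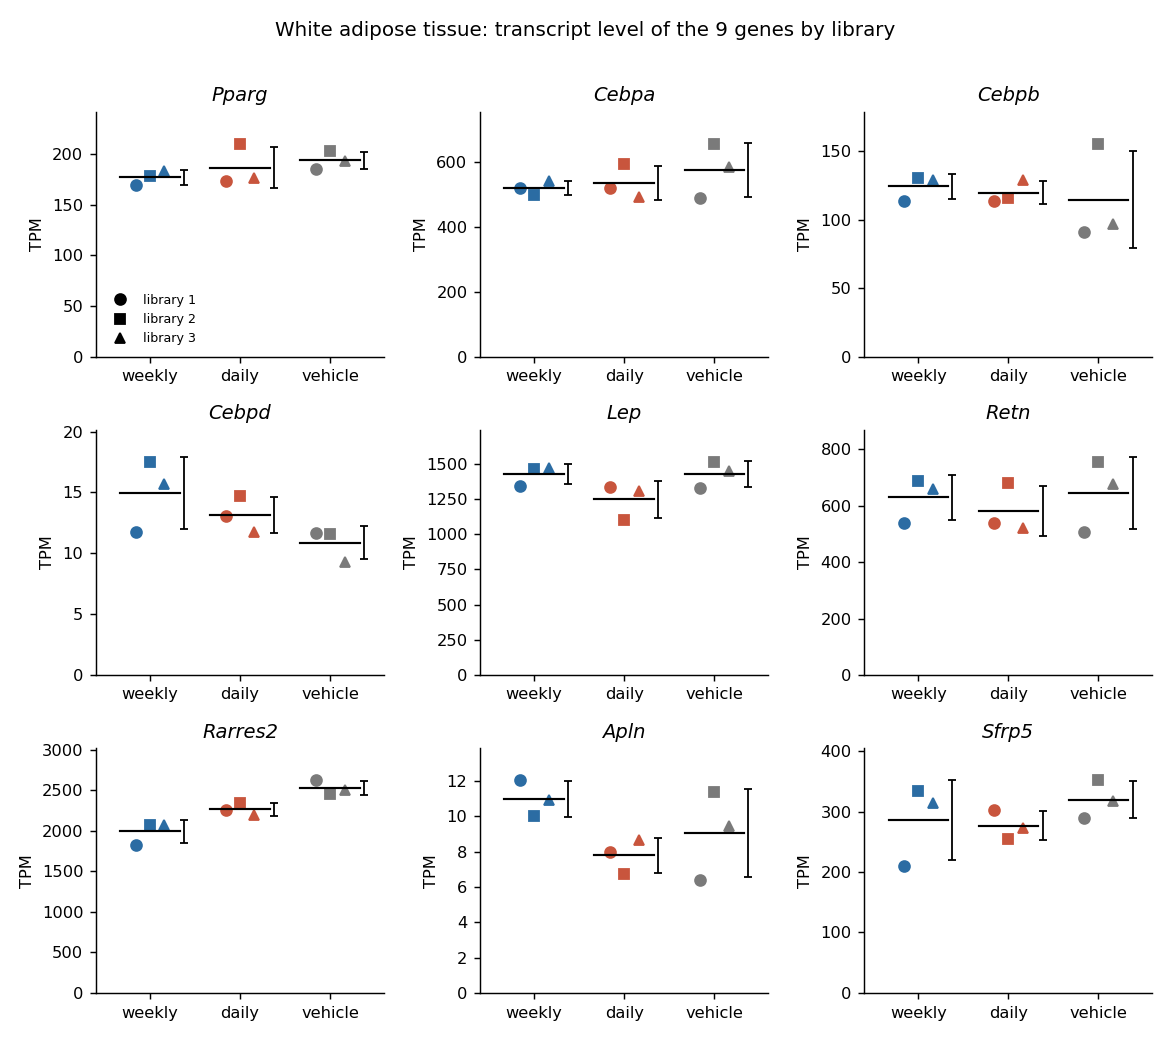
TPM (vertical axes, starting at 0) of each of the 9 genes in the weekly, daily and vehicle adipose libraries; symbols are libraries, the horizontal line is the mean and the bar beside it the SD of 3 mice. The Rarres2 libraries of the weekly group lie at 1828 to 2078 TPM, below the daily libraries at 2196 to 2350 TPM and the vehicle libraries at 2457 to 2624 TPM.

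Between 13413 and 14076 genes reached 1 TPM in an adipose library and between 11781 and 12200 in a muscle library. Transcripts of the mitochondrial genome took 12.9% to 16.9% of adipose TPM and 27.5% to 31.3% of muscle TPM. Summed skeletal muscle markers reached 1695 and 1243 TPM in weekly adipose libraries 2 and 3 and 1058 TPM in daily library 2, against 166 to 279 TPM in the other 6. The third library of each group held the middle of the group's 3 values for 44.8% to 54.8% of 5653 well expressed genes in adipose tissue and for 43.7% to 58.6% of 3340 in muscle, so results are also given without the third libraries where this changed a call. Stromal progenitor markers, such as Pdgfra, Dpp4 and Col3a1, summed to 2059 to 2398 TPM in weekly libraries, 1619 to 1920 TPM in daily libraries and 1521 to 1617 TPM in vehicle libraries. In weekly mice 7 of these 8 rose over vehicle (limma, adjusted p under 0.05), beside 5.72% of all genes. Of 10 adipocyte markers none was called in weekly against vehicle adipose tissue (limma, 1 at an unadjusted p under 0.05, beside 30.8% of all genes). Their sum was 50524 to 52178 TPM in weekly, 47889 to 49756 TPM in daily and 51130 to 55300 TPM in vehicle libraries. In whole tissue, fewer cells of a type and less RNA per cell cannot be told apart.

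Rarres2, the gene of chemerin, was the 1 member called in adipose tissue, and it fell with weekly prednisone. It stood at 1828, 2071 and 2078 TPM in weekly mice, 2254, 2350 and 2196 TPM in daily mice and 2624, 2457 and 2507 TPM in vehicle mice. All 3 weekly values were under all daily values, as for 3.05% of genes, and under all vehicle values, as for 7.88%. All daily values were under all vehicle values, as for 7.93% of genes. On the log2(TPM + 1) scale the difference of weekly from vehicle mice was -0.35 ± 0.07 (SE), a level 0.786 times that of vehicle, with a 95% interval of -0.49 to -0.20 and an adjusted p of 0.0215 (limma with Benjamini-Hochberg adjustment over 14150 genes). That comparison called 7.43% of all genes, 5.72% higher and 1.72% lower, and the median gene stood at 0.13. Under TMM scaling, which brought the median gene to 0.00, Rarres2 stood at -0.49 (adjusted p = 0.0334).

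Daily prednisone left Rarres2 at -0.16 ± 0.07 relative to vehicle (95% interval -0.30 to -0.01, adjusted p = 0.503, limma), which was not called. The weekly against daily difference of -0.19 (adjusted p = 0.246) was not called either. Daily against vehicle called 0.00707% of genes in adipose tissue and weekly against daily 0.311%. Per 1000 TPM of summed adipocyte markers, Rarres2 stood at 36.1, 39.7 and 41.1 TPM in weekly mice, 47.1, 47.2 and 45.7 TPM in daily mice and 51.3, 44.4 and 46.0 TPM in vehicle mice. On this ratio the weekly values lay under those of the other groups, while daily and vehicle values overlapped. The share of all genes whose groups separate on this ratio was not computed.

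The weekly call for Rarres2 rested on few libraries. Without weekly library 3, vehicle library 1 or vehicle library 3 the adjusted p was 0.0693, 0.0521 and 0.0774, and without the third library of every group it was 0.325, with a difference of -0.38. With the summed adipocyte markers as a covariate, an alternative added after seeing the data, the difference was -0.35 with an adjusted p of 0.113. Without the 3 adipose libraries that held more muscle transcripts, which leaves 1 weekly mouse assumed to vary like the other groups, it was -0.47 with an adjusted p of 0.0172. With the summed muscle markers as a covariate it was -0.44 with an adjusted p of 0.00246. The part of the stromal marker increase in this difference was not tested.

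Both protein-coding forms of Rarres2 were lower in weekly mice. Transcripts for the 162-residue protein summed to 1192 ± 65.9 TPM in weekly, 1370 ± 54.2 TPM in daily and 1514 ± 73.4 TPM in vehicle mice (SD, n = 3 each). Those for the 163-residue protein summed to 780 ± 82.6 TPM in weekly, 880 ± 33.1 TPM in daily and 1001 ± 47.1 TPM in vehicle mice. In the fit over 36256 transcripts, which called 0.0855% in weekly against vehicle adipose tissue, the most abundant form of each kind did not pass, at -0.37 ± 0.05 (adjusted p = 0.0550) and -0.37 ± 0.08 (adjusted p = 0.0996).

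Leptin did not differ measurably with the weekly regimen. Lep stood at 1346, 1464 and 1473 TPM in weekly mice, 1334, 1100 and 1310 TPM in daily mice and 1329, 1513 and 1449 TPM in vehicle mice. Weekly and vehicle mice overlapped, with a difference of -0.00 (95% interval -0.19 to 0.19, adjusted p = 0.991, limma). The daily values overlapped those of vehicle mice, since daily library 1 was above vehicle library 1, and daily library 2 was lowest. The daily difference from vehicle was -0.20 ± 0.08 (95% interval -0.39 to -0.01, adjusted p = 0.511), which is not a call. All 3 weekly values were above all daily values of Lep and of Apln, as for 22.5% of all genes.

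The other secreted factors gave no call in adipose tissue. Retn, resistin, averaged 630 ± 78.8 TPM in weekly, 581 ± 88.5 TPM in daily and 646 ± 127 TPM in vehicle mice, with overlapping groups. Sfrp5 averaged 286 ± 66.6 TPM in weekly, 277 ± 23.8 TPM in daily and 320 ± 31.1 TPM in vehicle mice. Weekly library 1, at 210 TPM, was the lowest for Sfrp5, and without the 3 muscle-rich libraries it is the only weekly one left, so that the call then obtained (-0.60, adjusted p = 0.0276) rests on a single weekly mouse.

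Apln, apelin, stood at 12.0, 10.01 and 10.9 TPM in weekly mice, 7.997, 6.73 and 8.66 TPM in daily mice and 6.37, 11.4 and 9.43 TPM in vehicle mice. The vehicle mice spanned nearly the whole range. The weekly against daily difference was 0.45 ± 0.18 (adjusted p = 0.276, limma) and the weekly against vehicle difference 0.28 ± 0.18 (adjusted p = 0.304).

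Among the transcription factors, Pparg stood at 169, 178 and 183 TPM in weekly mice, 174, 209 and 176 TPM in daily mice and 185, 202 and 193 TPM in vehicle mice. All weekly values were just under all vehicle values, as for 7.88% of genes, and the difference of -0.13 (95% interval -0.31 to 0.05, adjusted p = 0.290, limma) was not called. Cebpa averaged 519 ± 21.8 TPM in weekly, 535 ± 51.8 TPM in daily and 576 ± 82.8 TPM in vehicle mice. Its differences from vehicle, -0.14 for weekly and -0.10 for daily mice, had 95% intervals of -0.37 to 0.09 and -0.33 to 0.13.

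Pparg is read from separate starts, and the annotation gives a 505-residue protein to the transcript whose promoter is printed above and a 475-residue protein, 30 residues shorter, to transcripts from upstream starts. The longer form is the one found mainly in fat. It held 60.8%, 58.5% and 57.4% of Pparg TPM in weekly adipose tissue, 58.4%, 52.03% and 57.1% in daily adipose tissue and 48.2%, 61.7% and 54.7% in vehicle adipose tissue. The lowest and the highest of these shares both came from vehicle mice. The longer form averaged 104 ± 1.25 TPM in weekly, 104 ± 4.77 TPM in daily and 107 ± 17.9 TPM in vehicle mice. The shorter form averaged 69.6 ± 4.81 TPM in weekly, 78.4 ± 15.7 TPM in daily and 83.8 ± 9.36 TPM in vehicle mice.

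**Figure D2:**
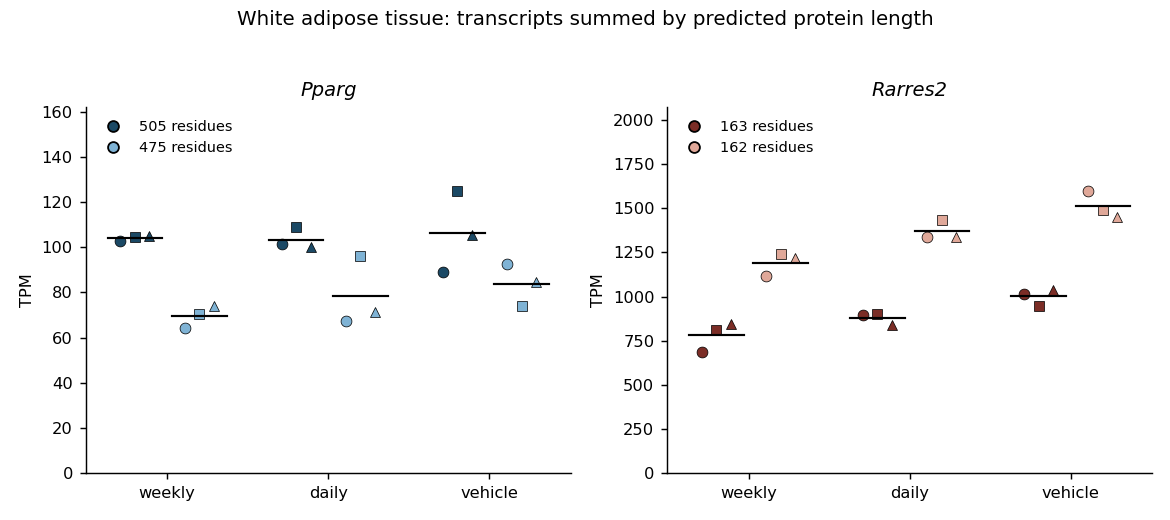
TPM (vertical axes, starting at 0) of Pparg and Rarres2 transcripts summed by the length of the encoded protein, in weekly, daily and vehicle adipose libraries; symbols are libraries and lines are means of 3 mice. Both Rarres2 products average lowest in weekly and highest in vehicle mice, while the longer Pparg product averages 104 to 107 TPM in all groups.

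Cebpb stood at 114, 130 and 129 TPM in weekly mice, 114, 116 and 129 TPM in daily mice and 91.1, 155 and 97.4 TPM in vehicle mice. The highest and the lowest value both came from vehicle mice, and neither regimen was called (differences of 0.16 and 0.10 from vehicle). Cebpd stood at 11.7, 17.5 and 15.7 TPM in weekly mice, 13.0, 14.7 and 11.7 TPM in daily mice and 11.7, 11.6 and 9.30 TPM in vehicle mice. The weekly and daily values all exceeded the vehicle values, as for 27.6% and 7.66% of genes, though the lowest of each and the highest vehicle value all round to 11.7 TPM. The the differences of 0.42 ± 0.15 (adjusted p = 0.104) and 0.26 ± 0.15 (adjusted p = 0.647) were not called (limma).

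The 3 highest Cebpd values came from the same 3 adipose libraries that held the most muscle transcripts. With the summed muscle markers as a covariate the weekly difference was 0.17 (adjusted p = 0.327), and without those libraries, with 1 weekly mouse left, it was 0.11 (adjusted p = 0.660). In muscle itself Cebpd was only 5.27 to 6.78 TPM, below its level in every adipose library. The part of muscle tissue in these values was not tested beyond this.

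**Figure D3:**
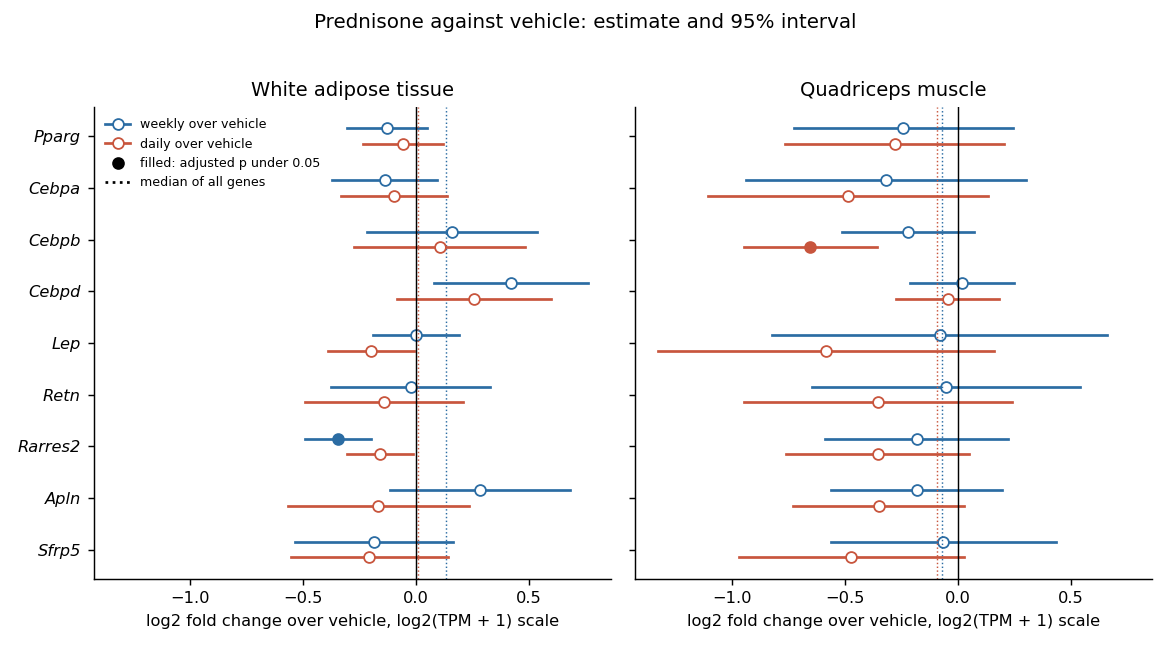
Difference from vehicle on the log2(TPM + 1) scale (horizontal axes) of the 9 genes in adipose tissue (left) and quadriceps (right), weekly above daily within each gene; bars are 95% intervals from limma and dotted lines the median of all genes. The filled points, Rarres2 in weekly adipose tissue at -0.35 and Cebpb in daily muscle at -0.65, are the calls at an adjusted p under 0.05.

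In weekly adipose tissue, where 7.43% of all genes were called over vehicle, other genes of the pathway were counted by list. Of 28 other adipogenic transcription factors and cofactors tested, 2 rose and 1 fell over vehicle, with a list median of 0.17 against 0.13 for all genes. Klf4, an early factor of fat cell formation that induces Cebpb, rose by 0.91 ± 0.09 (adjusted p = 0.00306), standing at 42.4, 34.8 and 42.4 TPM in weekly mice, 27.4, 28.0 and 27.2 TPM in daily mice and 21.5, 21.6 and 19.0 TPM in vehicle mice. Its weekly values lay above all daily values, as for 22.5% of genes, and these above all vehicle values, as for 7.66%. Klf9, a glucocorticoid receptor target, rose by 0.44 (adjusted p = 0.0423), and Ddit3, the stress factor that dimerises with C/EBP proteins and blocks their binding, fell by 0.35 on the log2 scale (adjusted p = 0.0225, limma for all 3).

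Of 30 known PPARG target genes of fat cells none rose and 1 fell, with a median of -0.05. The gene that fell was Cidea, a lipid droplet protein abundant in brown fat, by 0.59 on the log2 scale (adjusted p = 0.0323, limma). At an unadjusted p under 0.05, 8 of the 30 targets, Cidea included, were lower and 3 were higher, beside 6.6% and 24.2% of all genes. Cidea is also 1 of 5 brown adipocyte markers, of which no other was called. At an unadjusted p under 0.05, 4 of them, Cidea included, were lower and 1 was higher, beside 6.6% and 24.2% of all genes. These 5 summed to 116 to 131 TPM in weekly and 157 to 242 TPM in vehicle mice. Of 24 other adipokines 2 rose and 2 fell, with a median of 0.14. Sfrp2, a Wnt modulator of the same family as Sfrp5 and a stromal product, rose by 1.18 ± 0.21 (adjusted p = 0.0192), with 14.98, 20.6 and 19.2 TPM in weekly mice, 12.8, 7.12 and 12.1 TPM in daily mice and 8.96, 6.14 and 7.50 TPM in vehicle mice. Retnla, a resistin relative made by macrophages and fat tissue, rose by 0.61 (adjusted p = 0.0356), while Nrg4, a neuregulin secreted by fat cells, fell by 0.48 on the log2 scale (adjusted p = 0.0271). Summed macrophage markers were 2803 to 3323 TPM in weekly and 2207 to 2975 TPM in vehicle mice, and 3 of 10 rose. Summed mesothelial markers were 89.5 to 159 TPM in weekly and 59.4 to 91.3 TPM in vehicle mice, and 3 of 8 rose. Of all genes, 5.72% rose. The part of these cell markers in the list counts was not tested. In 13 glucocorticoid response genes, which include Cebpb and Cebpd, 2 rose and none fell, Klf9 and Fkbp5, an immunophilin of the receptor complex (0.45, adjusted p = 0.0232). At an unadjusted p under 0.05 (limma), 6 of these 13 were higher and 0 lower. By the same rule 7 of the 28 transcription factors were higher and 3 lower, and 4 of the 24 other adipokines were higher and 3 lower.

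No receptor or partner of these adipokines was called in adipose tissue in any of the 3 comparisons (limma, 14 tested). In weekly against vehicle, 2 of the 14 had an unadjusted p under 0.05, beside 30.8% of all genes. Cmklr1, the signalling receptor of chemerin, stood at 50.0, 50.3 and 52.8 TPM in weekly mice, 38.3, 44.2 and 39.3 TPM in daily mice and 31.7, 52.5 and 47.5 TPM in vehicle mice, so the vehicle mice covered most of its range. The other chemerin receptors, Gpr1 and Ccrl2, were at 0.867 to 1.497 TPM and 3.13 to 5.05 TPM. The leptin receptor Lepr was near the filter, at 0.812 to 1.96 TPM, and the apelin receptor Aplnr was at 13.1 to 27.7 TPM. Wnt5a, the ligand bound by SFRP5, was at 10.3 to 18.5 TPM. In daily against vehicle and in weekly against daily adipose tissue, 0 genes of any of these 5 lists were called (limma). At an unadjusted p under 0.05, daily against vehicle had 3 of 28 transcription factors, 5 of 30 PPARG targets, 3 of 24 other adipokines, 0 of 14 receptors and 3 of 13 glucocorticoid response genes, beside 9.22% of all genes. Weekly against daily had 7 of 28 transcription factors, 6 of 30 PPARG targets, 6 of 24 other adipokines, 1 of 14 receptors and 9 of 13 glucocorticoid response genes, beside 15.8% of all genes.

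All 9 members were higher in adipose tissue than in muscle of the same vehicle mice. The differences on the log2(TPM + 1) scale were 5.19 for Lep, 4.34 for Pparg, 4.27 for Retn, 4.26 for Sfrp5, 4.15 for Rarres2, 4.13 for Cebpa, 1.93 for Apln, 0.98 for Cebpb and 0.79 for Cebpd (limma on within-mouse differences, all called). The background is high, since 85.9% of all genes tested were called, 72.4% of all genes as higher in adipose tissue, and the median gene stood at 0.87. Under TMM scaling, which brought the median gene to 0.01, Cebpb and Cebpd turned to -0.15 and -0.23, neither of them called, under quantile normalization Cebpd turned to -0.18, and the other 7 stayed higher in adipose tissue. Cebpb also lost its call, without turning, under 1 other of the 20 alternatives. Weekly and daily mice gave the same 9 calls, with 89.2% and 87.5% of genes called.

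**Figure D4:**
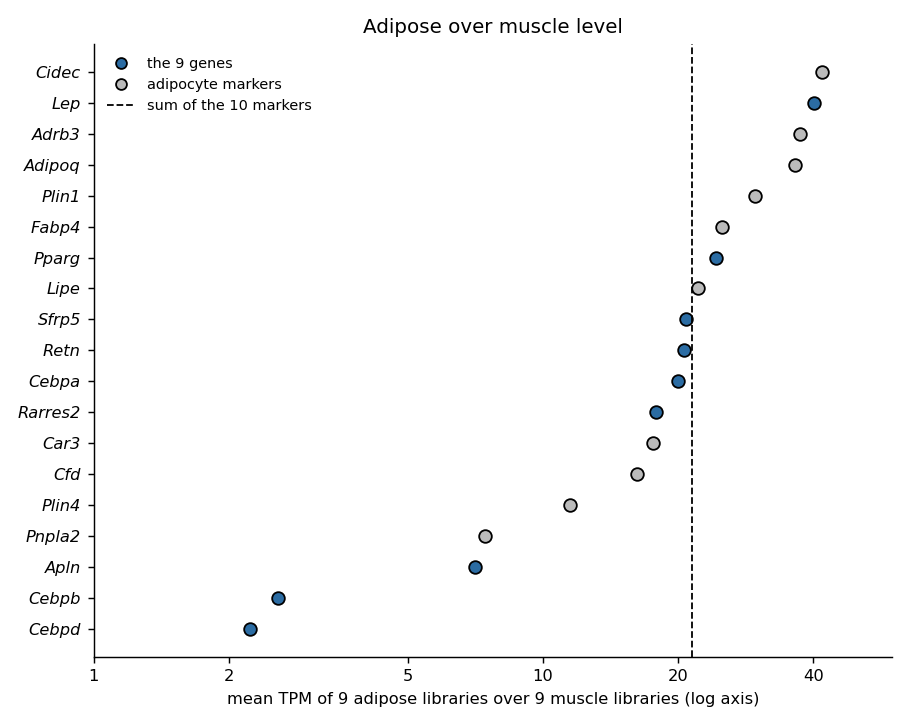
Mean TPM of the 9 adipose libraries divided by that of the 9 muscle libraries (horizontal log axis) for the 9 genes (blue) and 10 adipocyte markers (grey); the dashed line is the ratio of the summed markers, 21.4. Retn, Sfrp5, Cebpa, Rarres2 and Pparg lie near the line at 17.9 to 24.2, Lep at 40.1, and Apln, Cebpb and Cebpd at 7.07, 2.57 and 2.23.

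Quadriceps libraries also held adipocyte transcripts. The 10 adipocyte markers summed to 2120, 2633 and 2333 TPM in weekly, 2970, 1228 and 1864 TPM in daily and 3089, 2474 and 2753 TPM in vehicle muscle, on average 4.67% of the adipose sum. Daily muscle library 1 was near the top and daily library 2 at the bottom, 2.42-fold apart. The members followed that pair of libraries to different degrees, with ratios of library 1 to library 2 of 3.22 for Lep, 2.57 for Cebpa, 2.47 for Retn, 1.98 for Sfrp5, 1.86 for Pparg, 1.79 for Apln and 1.77 for Rarres2, but 0.925 for Cebpb and 0.959 for Cebpd.

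Dividing by the adipocyte sum brought most members to a common level in muscle. The coefficient of variation over the 9 muscle libraries was 5.35% per adipocyte marker TPM and 27.2% as TPM for Cebpa, 9.77% and 29.1% for Lep, 7.44% and 24.2% for Retn, and 9.33% and 24.5% for Sfrp5. It was 10.8% and 18.2% for Rarres2, 14.0% and 22.3% for Pparg, and 20.2% and 30.6% for Apln. For Cebpb it was 25.1% and 23.3%, and for Cebpd 34.5% and 9.47%, so these 2 did not follow the adipocyte sum. The level per adipocyte marker in muscle over that in adipose tissue was 1.07 for Cebpa, 1.05 for Retn, 1.04 for Sfrp5, 0.899 for Pparg and 1.22 for Rarres2. It was 0.527 for Lep, and 3.07, 8.66 and 10.3 for Apln, Cebpb and Cebpd. Whether these transcripts came from fat cells among the fibres was not tested beyond these ratios.

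**Figure D5:**
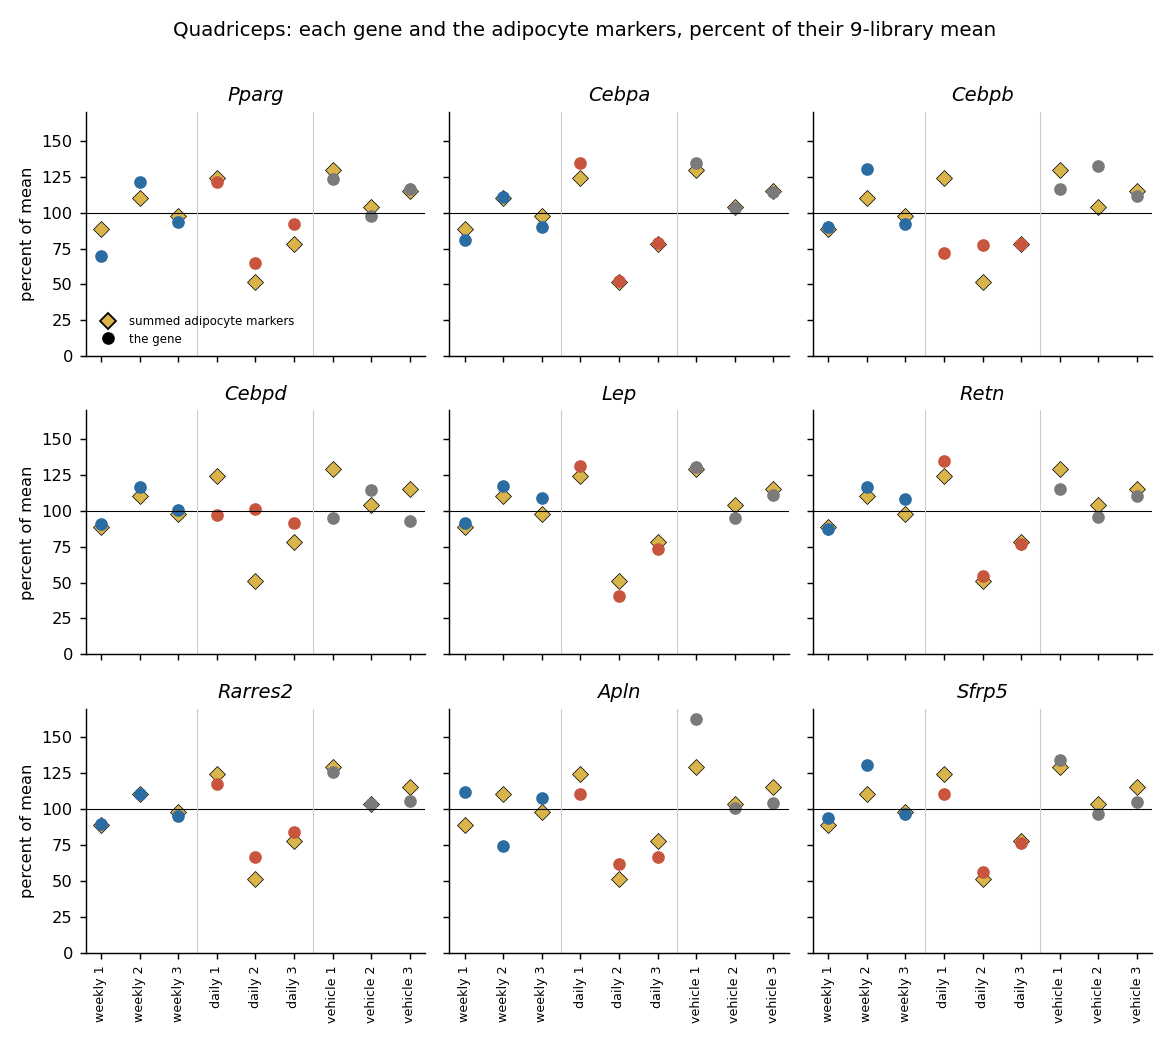
Level of each gene (circles) and of the summed adipocyte markers (diamonds) in the 9 quadriceps libraries, as percent of their own mean over the 9 (vertical axes, starting at 0). The circles of Cebpa, Lep, Retn, Rarres2 and Sfrp5 lie near the diamonds, down to daily library 2, while those of Cebpb and Cebpd do not.

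In muscle the 1 member called was Cebpb, which fell with daily prednisone. It stood at 33.3, 36.0 and 36.3 TPM in daily mice and 54.2, 61.6 and 52.02 TPM in vehicle mice, a difference of -0.65 ± 0.13 (95% interval -0.94 to -0.36, adjusted p = 0.0131, limma). All daily values were under all vehicle values, as for 27.8% of genes, and the comparison called 13.7% of 12246 genes, 11.8% of all genes as lower, with a median of -0.09. The weekly values, 41.9, 60.7 and 43.0 TPM, lay above all daily values, as for 14.7% of genes, and overlapped the vehicle values, with no call against vehicle (-0.22, adjusted p = 0.461) or against daily mice (0.43, adjusted p = 0.131). Weekly against vehicle called 0.049% of genes in muscle and weekly against daily 1.77%.

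The Cebpb difference in muscle did not move with the adipocyte markers: with their sum as a covariate, added after seeing the data, it was -0.66 (adjusted p = 0.0352). The call was lost without daily library 3 (adjusted p = 0.0502), without the third libraries (-0.72, adjusted p = 0.159) and under quantile normalization (-0.51, adjusted p = 0.0577). In adipose tissue the daily difference of Cebpb was 0.10, and the difference between the tissues in the daily effect, 0.75 ± 0.16, had an adjusted p of 0.117 (limma on within-mouse differences, 0.0596% of genes called). No member was called for a tissue difference of the weekly effect, where 2.56% of genes were, and 0 genes without vehicle mouse 2.

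The other 8 members were not called in daily muscle, with differences from vehicle between -0.04 for Cebpd and -0.58 for Lep. Lep stood at 44.8, 13.9 and 24.9 TPM in daily muscle, 31.2, 40.1 and 37.1 TPM in weekly muscle and 44.6, 32.5 and 37.9 TPM in vehicle muscle, with daily library 1 at the top and daily library 2 at the bottom. Without daily library 1, Lep (-0.99, adjusted p = 0.0257), Cebpa (-0.83), Retn (-0.69), Sfrp5 (-0.70) and Rarres2 (-0.57) were also called, and this is the daily library with the highest adipocyte sum. Leaving out single muscle libraries in turn called 532 to 1668 of 12246 genes in this comparison, against 1674 with all libraries. Per 1000 TPM of summed adipocyte markers, daily and vehicle muscle overlapped for Lep, Cebpa, Sfrp5 and Rarres2. Retn per 1000 TPM of these markers was higher in daily muscle, at 13.6, 13.3 and 12.4 TPM, against 11.2, 11.6 and 12.0 TPM in vehicle muscle. How many of all genes separate on this ratio was not computed. The part of the adipocyte transcripts in these 5 calls was not tested beyond this.

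Of the other pathway genes in daily muscle, 9 of 29 adipogenic transcription factors and cofactors, 4 of 29 PPARG targets, 1 of 19 other adipokines and 2 of 11 receptors and partners fell over vehicle and none rose. Of all genes, 11.8% fell and 1.91% rose. The medians of these lists were -0.24, -0.34, -0.09 and -0.13, against -0.09 for all genes. Of the 13 glucocorticoid response genes, 2 rose and 3, Cebpb included, fell, with a median of -0.07. Of the 10 adipocyte markers 1 fell and all 10 had a difference below 0, with a median of -0.49. Of 10 macrophage markers 3 rose, beside 1.91% of all genes, with sums of 396 to 607 TPM in daily and 246 to 359 TPM in vehicle muscle. The part of these markers in the list counts was not tested. In weekly muscle none of these genes was called over vehicle (limma). At an unadjusted p under 0.05 there were 4 of 29 transcription factors, 1 of 29 PPARG targets, 1 of 19 other adipokines, 1 of 11 receptors and partners and 2 of 13 glucocorticoid response genes, beside 15.4% of all genes.

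By Pearson correlation of log2(TPM + 1) over the 9 adipose libraries, among 9869 genes, the closest gene was Ndufa7 for Rarres2 (r = 0.986), Ppp1r13b for Apln (0.985), Mrpl28 for Sfrp5 (0.978), Chp1 for Lep (0.965) and Ahsa1 for Retn (0.962). For Cebpa it was Tusc5 (0.951), for Pparg Acat2 (0.947) and for Cebpb Cyp2u1 (0.921). The second closest gene was Uqcrc1 for Rarres2 (0.9825), Mlec for Apln (0.981), Rtn2 for Sfrp5 (0.9755), Ghr for Lep (0.963) and Popdc2 for Retn (0.952). It was Prcc for Cebpa (0.950), Crat for Pparg (0.945) and Cdk2ap1 for Cebpb (0.910). For Cebpd the nearest were the muscle genes Trdn (0.940) and Ankrd23 (0.931). With 9 libraries that share group and tissue composition, these values describe likeness and carry no test.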

How the data were processed

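RNA-seq libraries of adipose tissue and quadriceps from 9 mice were analysed. The authors deposited 1 table of TPM per transcript, and per the submitters' processing notes Trimmomatic, HISAT2, kallisto and mm10 were used, with no versions or roles given. Read counts and depth per library were not used here, so no counting interval is given, and the precision is that of 3 mice per group. Transcript TPM were summed per gene symbol. The fit took genes reaching 1 TPM in 3 or more of a tissue's libraries, on log2(TPM + 1), with limma 3.58.1 in R 4.3.3 (empirical Bayes with trend, 9 libraries of the tissue, Benjamini-Hochberg over all genes, called under 0.05). Fold changes on this scale understate those of low genes. Tissues were compared on the adipose minus muscle difference of each mouse. The script was tested on simulated data. Coding lengths and positions come from GENCODE M21, which holds all 23 member transcripts in the same version.

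The 9 members, the pathway lists and the alternatives were chosen with earlier results of these data known. Text names the 9 members, their transcripts reaching 1 TPM, and of each pathway list the counts and up to 3 called genes with the smallest p, with the direct receptors and the 2 genes most like a member. Replicate numbers did not pair mice across groups: same-numbered libraries had median residual correlations of 0.0295 in adipose tissue and -0.0304 in muscle. P-values measure the spread between these mice.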

Additional observations from a re-analysis of the deposited data

How the results depend on the processing

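Of 1723 member values under alternatives, 1677 kept their side of the threshold, with no called value changing direction, 10 lost a call, 33 gained one and 3 turned: Cebpb (-0.15) and Cebpd (-0.23) between the tissues of vehicle mice under TMM scaling, and Cebpd (-0.18) there under quantile normalization. Array weights, whose estimation did not fully converge, gave 26 of the gained calls: 3 members instead of 1 in adipose weekly against vehicle, 5 instead of 0 in adipose daily against vehicle, in adipose weekly against daily and in muscle weekly against daily, 7 instead of 1 in muscle daily against vehicle, and 2 and 1 instead of 0 for the tissue difference of the weekly and the daily effect. The highest all-gene counts under any alternative were 2820 against 1 in adipose daily against vehicle and 3941 against 44 in adipose weekly against daily. In muscle they were 4159 against 217 for weekly against daily and 5166 against 1674 for daily against vehicle. For the tissue differences they were 2528 against 301 (weekly effect) and 814 against 7 (daily effect). In adipose weekly against vehicle, 0 members were called with no filter, without the third libraries or with adipocyte markers as a covariate (added after seeing the data), 2 without the muscle-rich libraries, and 0 to 1 when single libraries were left out. In adipose weekly against daily, muscle markers as a covariate gave 1. In muscle daily against vehicle, 0 were called under quantile normalization or without the third libraries, and 0 to 6 when single libraries were left out. The cause was not tested. With a replicate block the calls stayed at 1 (adipose weekly, Rarres2, adjusted p = 0.0390) and 1 (muscle daily, Cebpb, adjusted p = 0.0128), and the block changed no other member call; replicate numbers were not shown to pair mice. Over all genes, adipose weekly against vehicle called 1052, with 64 to 1511 when single libraries were left out, 1 without the third libraries and 7679 with array weights. The block moved the all-gene counts to 806 against 1052 in adipose weekly against vehicle, 12 against 44 in adipose weekly against daily, 0 against 6 in muscle weekly against vehicle 100 against 217 in muscle weekly against daily, 0 against 1 in adipose daily against vehicle, and, on the differences of each mouse, 8 against 301 and 0 against 7 for the tissue difference of the weekly and the daily effect. Leaving out single mice gave 0 to 564 for that weekly difference and 0 to 40 for that daily difference. Leaving out single libraries gave 532 to 1668 in muscle daily against vehicle, 37 to 282 in muscle weekly against daily and 2 to 47 in adipose weekly against daily. TMM scaling moved them to 813 against 1674 in muscle daily against vehicle and to 6 against 301 for the tissue difference of the weekly effect. Depth is unknown, so what it limits cannot be given; with 3 mice per group, the intervals set how precisely a difference is known.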
